A study of Oncorhynchus mykiss with 23 samples.

Results

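A set of 41 microarray probes whose signal in trout fast muscle lay below both the fasted and the control-fed level early in refeeding is described here. The 41 probes were taken from 60195 non-control probes on the array, 25812 of which were well above background in all 4 control-fed trout. A probe was a member when it was well above background on all 4 of those arrays and when its group means after 4 and 11 days of refeeding were both at least 1.5 log2 units below the control mean and at least 1.5 below the fasted mean. The rule was met by 47 probes, and 6 of them (TAT, Pdk1, both CPT1A probes, a carnitine probe and TP53INP2) were left out by name, as was any FBXO32 probe. The members were thus selected on the measured group means of these 4 feeding conditions, and the differences used by the rule are given as a description and were not tested.

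The study followed muscle gene expression in rainbow trout (Oncorhynchus mykiss) of a spring strain, aged 1 year, through a fast and refeeding. Trout fasted for 30 days were sampled unfed (F0, 5 fish) or after 4 days (RF4, 5 fish), 11 days (RF11, 5 fish) or 36 days (RF36, 4 fish) of refeeding at 3 times the satiation ration, and trout fed to satiation throughout were sampled on day 30 (C0, 4 fish). RNA from a slice of fast muscle of each fish was hybridised to 1 Agilent 1-colour array, so the replicates are individual fish. Levels are log2 signal after subtraction of each array's 75th percentile, and a difference of 1 is a factor of 2.

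The design limits what a comparison can separate. The control trout had a separate tank, and the 4 control fish used here were all taken on day 30, so that diet, tank and, for refed trout, sampling day cannot be told apart in any comparison with C0. In bulk muscle, fewer cells of a type and less RNA per cell cannot be told apart. On the 23 arrays, between 45.2% and 67.2% of spots were well above background. The array C0-1 had the lowest median correlation with its own group (0.933) and matched no column of the study's own heat map, whereas every other array matched one. C0-3 (0.937) and C0-2 (0.9435) correlated with their group almost as little, and all remaining arrays were at 0.961 or above. The main counts that rest on the controls are also given without C0-1, as are the named probes whose call changed. Leaving out C0-1 does not remove the unevenness of the other controls. Fast fibre probes were strongly expressed on all arrays, with the probe named Fast_myosin between 9.04 and 10.75. A probe named only Slow was uneven between fish, at 8.97 in C0-3, 7.30 in RF4-3 and 5.20 in RF11-4, and at most 0.71 in RF36. In fasted fish it was at 4.85 in F0-2, 4.76 in F0-4, 3.15 in F0-3, 0.98 in F0-7 and -0.89 in F0-5.

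Feeding raises insulin and related growth signals, which restrain the FOXO transcription factors and, through mTORC1, autophagy. Fasting has the opposite effect, and muscle then spares glucose, burns fat and breaks down protein through the ubiquitin-proteasome system and the lysosome. Genes of these routes are known to be high in fasted muscle and to drop on refeeding. The members were chosen to have early refed means lower than in muscle of continually fed trout, and not merely back at that level. This is the rule and not a result.

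Of the 41 members, 26 probes carried a gene or protein name, 22 different names in all, and 15 carried none. The names are those of the closest protein in another species, and most of the array's probes are unnamed in the material used here. The probe sequences were not used here, so members are identified by name and probe number. The control means of the members ranged from -1.49 to 4.08, with a median of 0.58. The drop in mean from C0 to RF4 was 2.83-fold to 10.2-fold for the 37 probes that were well above background in some RF4 fish. For the other 4 it is only bounded, at 2.51-fold to 11.1-fold or more. The floor was the dimmest signal well above background on each array, or the measured signal where that was higher. A probe not well above background can lie above the dimmest such signal, so the bounds are approximate. The median drop over all 41 was 4.83-fold to RF4 and 3.69-fold to RF11 on measured means, and 4.72-fold and 3.56-fold with the dim probes at their bounds. No RF4 fish overlapped a C0 or an F0 fish for any of the 41 probes, a pattern shown by 6.14% (C0) and 7.47% (F0) of all tested probes. RF11 fish stayed below every C0 fish for 37 probes (3.8% of all tested probes) and below every F0 fish for 40 probes (8.48%). The rule used these groups, so nothing is read from these counts. At the edge of the rule, NUP98, a KIAA1370 probe and SVEP1 had smallest differences of 1.501, 1.518 and 1.539, and LMO7 and the unnamed probes TC120536 and TC116146 just missed it with 1.487, 1.484 and 1.479.

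The rule was also rebuilt with each of 19 arrays (F0, RF4, RF11 and C0) left out in turn, and the left-out array, which then had no part in the choice, was measured over the rebuilt set. The means it was set against came from arrays that did choose the set, and the rule had placed them high or low. No share over all tested probes is given for these gaps, so they only describe how even the arrays were. Each left-out RF4 array was below both C0 and F0 means for at least 97.7% of its set, with a median gap of 2.06 to 2.50. Left-out RF11 arrays were below for at least 97.6%, with a median gap of 1.48 to 2.39. Left-out F0 arrays were above both refed means for 100% of the set, with a median gap of 1.58 to 2.71. The controls were less even. Left-out C0 arrays were above the refed means for 88.6% to 97.9% of the set, and the median gap was 1.13 for C0-1 against 1.72 to 2.01 for the other control arrays. Without C0-1 the rule found 60 probes, 39 of them among the 41. C0-1 was the lowest of the 4 control fish for 27 of the 41 members and the highest for 3. Averaged over the 41 probes, the level was 0.23 in C0-1 and 0.72, 1.04 and 1.01 in C0-2, C0-3 and C0-4. C0-1 was thus the lowest control fish. It was above every refed fish, but it and the early refed fish had helped to choose these probes. When left out of the choice, C0-1 had a gap of at least 1.5 for 14 of 60 probes (23.3%). The other control arrays, left out in turn, had such a gap for 59.6% to 76.7% of their sets.

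The RF36 arrays had no part in the rule, so the members' level after 36 days of refeeding was a new measurement, although the C0, F0 and early refed arrays it is set against were those that chose the members. The mean over the members was 0.75 ± 0.38 (SD, n = 4) in C0, -1.69 ± 0.07 (n = 5) in RF4, -1.36 ± 0.32 (n = 5) in RF11 and -0.68 ± 0.23 (n = 4) in RF36. The RF36 fish were at -0.54, -0.60, -1.03 and -0.56, the highest RF11 fish at -1.05 and the highest RF4 fish at -1.61. After 36 days the member mean lay above every early refed fish and below every control fish. The margin over RF11 was narrow, with RF36-3 at -1.03 and RF11-2 at -1.05. The rule had placed the early refed groups low and the controls high, so part of either gap can come from the choice. The early refed arrays were not left out in turn for this comparison. In RF36 against C0, 25 of the 41 probes were lower and 0 higher (limma, Benjamini-Hochberg adjusted p under 0.05 over all 34200 tested probes; at an unadjusted p under 0.05, 32 lower and 0 higher), where 3.22% of all tested probes were lower and 9.24% higher (unadjusted, 9.75% and 17.9%). The median difference was -1.36 over the members and 0.03 over all tested probes. The RF36 fish were all below the C0 fish for 25 probes, a pattern shown by 4.45% of all tested probes. Without C0-1, 27 were lower, 24 of them among the 25, against 2.41% of all tested probes. When the model held only the C0 and RF36 arrays, 15 members were lower, against 0.547% of all tested probes.

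Since the rule selects probes that were high in these particular control fish, each control array was also left out of the choice and then set against the RF36 mean. The RF36 mean was below the left-out array for 43 of 47 probes with C0-2, 32 of 44 with C0-3, 42 of 43 with C0-4 and 40 of 60 with C0-1. The median difference was -1.18, -1.38, -1.30 and -0.54 in the same order. Over all tested probes the RF36 mean was below the same arrays for 45.2%, 50.2%, 48.2% and 46.8%, with medians of 0.08, 0.00, 0.02 and 0.08. Leaving out C0-3, the fish with the high Slow probe, gave 23 lower members in RF36 against C0 (4.38% of all tested probes). The 3 array slides held 1, 2 and 1 RF36 arrays and 1, 1 and 2 C0 arrays, and the only control on the second was C0-1. Within them, the median RF36 minus C0 difference over the members was -1.12, -0.73 and -2.05, and RF36 was lower for 39, 32 and 39 of the 41 probes. These controls had helped to choose the members, and no share over all tested probes is given, so these counts are a description only. The part of dissection in these differences was not tested.

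RF36 was also set against the earlier stages. Against RF11, 11 members were higher (2.73% of all tested probes) and 0 lower (3.18%), and at an unadjusted p under 0.05 these were 18 (11.8%) and 0 (9.49%). Against RF4, 18 were higher (9.4% of all tested probes) and 0 lower (7.7%), with 25 (16.4%) and 1 (13.6%) at an unadjusted p under 0.05. Against F0, 36 were lower (14.5% of all tested probes) and 0 higher (18.2%), with the same counts at an unadjusted p under 0.05 (19.8% and 22.9%). These comparisons share the RF36 fish, and each is set against a group that the rule had placed low or high. By their calls the members fell into 4 sets. In the first, 17 probes were below C0 and not called above RF4 or RF11 (3.13% of all tested probes), with RF36 minus C0 between -4.0 and -1.18. In the second, 8 were below C0 but above RF4 or RF11 (0.0819%). In the third, 11 were above RF4 or RF11 and not called below C0 (9.83%), with differences from C0 of -0.80 to 0.09. The remaining 5 were called in neither way (87%). A probe not called may still differ, since a group held only 4 or 5 fish.

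Among genes of fuel use, sterols and transport, 5 names were members. Their 7 probes, 3 of them for CYP46A1, were called below C0 at RF36 (3.22% of all tested probes). The rule had placed C0 high, and some of these calls were lost with only the 2 groups in the model, as given below. The count describes these probes and not the routes they belong to. PDK2, a kinase that shuts off pyruvate dehydrogenase and so spares glucose, lay at -1.89, -1.25, -1.34 and -1.46 in C0 and at 0.49, -1.03, -0.13, -1.32 and -0.98 in F0. It was at -4.28, -3.95, -4.93, -3.97 and -2.34 in RF4, at -4.13, -2.88, -4.83, -5.12 and -4.59 in RF11 and at -3.45, -4.51, -4.29 and -4.74 in RF36. Every refed fish was thus below every unfed or control fish, at all 3 times. The probe was well above background in 1 of 5 RF4 fish. It was not well above background in any RF11 or RF36 fish, so its signal in those 2 groups is only bounded. With the floor set as above, PDK2 was at least 2.52-fold lower in RF11 than in C0 and at least 1.70-fold lower in RF36 than in C0 (adjusted p = 0.00103, limma). All bounds here are computed this way. An adjusted p beside a bound is that of limma on the measured levels, dim ones included, and is not a test of the bound.

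CYP46A1, which hydroxylates cholesterol for its removal, was read by 3 member probes, and their profiles correlated at 0.90 to 0.92 over the 23 arrays. The brightest, TC131019, lay at 0.24, 0.90, 2.02 and 1.5 in C0, at 2.23, 2.34, 2.40, 1.77 and 2.23 in F0 and at -1.28, -0.36, -0.59, -0.15 and -0.62 in RF4. It stayed at -1.18, -0.86, -1.53, -0.63 and -0.46 in RF11 and at -0.71, -0.24, -0.28 and -0.70 in RF36. The RF36 and C0 fish did not overlap, and RF36 was lower than C0 by 1.65 ± 0.31 (SE, adjusted p = 0.0016, and 0.0505 with only the 2 groups in the model). The other 2 probes were not well above background in any RF36 fish and were at least 2.26-fold (CUST_20026, adjusted p = 0.00466) and at least 2.52-fold lower than C0 (TC111358, adjusted p = 0.00105). A CYP46A1 probe outside the set, TC112425, missed the rule with a smallest difference of 0.90 and had means of -0.82 in C0, -1.96 in RF4, -1.72 in RF11 and -1.99 in RF36.

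SLC38A9, a lysosomal amino acid transporter through which mTORC1 senses arginine in mammals, had C0 levels of 0.08, 0.85, 0.39 and 0.54. The RF4 levels were -1.64, -1.07, -1.74, -1.76 and -1.82, the RF11 levels -1.91, -1.25, -1.26, -0.97 and -0.80, and the RF36 levels -1.83, -0.80, -2.02 and -1.03. The refed groups overlapped one another but not the controls, and RF36 was lower than C0 by 1.88 ± 0.30 (adjusted p = 0.000397). ABCC5, an exporter of cyclic nucleotides, was variable in F0 (-0.61 to 2.58) and well above background in only 1 of 4 RF36 fish. Its RF36 mean was 2.22 ± 0.58 below C0 (adjusted p = 0.0155), a call lost without RF36-2 (adjusted p = 0.0627) or RF36-3 (adjusted p = 0.0578), with normexp (an alternative background correction, adjusted p = 0.0764) and with only the 2 groups in the model (adjusted p = 0.0592). The aspartoacylase relative acy3.2, whose family splits acylated amino acids, fell furthest in RF4, with a mean of -1.02 against 2.33 in C0. It was higher in RF11 than in RF4 by 1.36 ± 0.34 (adjusted p = 0.0428) and remained 1.83 ± 0.39 below C0 in RF36 (adjusted p = 0.00362, and 0.0526 with only the 2 groups in the model).

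Genes of ubiquitin tagging, autophagy and innate signalling gave 7 names, some called below C0 at RF36 and some not. A call for one gene and none for another does not show that the genes differ. TRIM39, a RING-type ubiquitin ligase, lay at 1.85, 2.66, 4.79 and 3.77 in C0 and at 2.60, 3.40, 3.18, 2.51 and 3.00 in F0. It was at 0.41, 0.34, 0.75, 0.25 and -0.20 in RF4, at -0.25, 0.97, 0.14, 0.70 and 1.5 in RF11 and at 2.73, 2.43, 1.83 and 2.88 in RF36. The RF36 fish overlapped the C0 fish, with RF36-3 just under the lowest of them, and were above all early refed fish, 1.86 ± 0.43 above RF11 (adjusted p = 0.0114) and 2.16 ± 0.43 above RF4 (adjusted p = 0.00139). TRIM21, a ligase that also binds antibodies in the cytosol, had means of 0.61 in C0, -1.94 in RF4, -1.59 in RF11 and -0.12 in RF36, and rose by 1.46 ± 0.34 from RF11 to RF36 (adjusted p = 0.0124). RF36 minus C0 was not called for TRIM39 (-0.80, adjusted p = 0.261, and -1.27, adjusted p = 0.0661, without C0-1). It was not called for TRIM21 either (-0.73, adjusted p = 0.191, and -0.97, adjusted p = 0.118, without C0-1). A ubiquitin probe, TC123267, behaved otherwise: its mean was 0.38 in C0, -2.39 in RF4, -1.64 in RF11 and -1.64 in RF36, and RF36 stayed 2.02 ± 0.36 below C0 (adjusted p = 0.000972). The probe was well above background in 2 of 5 RF4 fish and 3 of 4 RF36 fish. Several genes encode ubiquitin, and which of them the probe reads was not determined.

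The probe named lgg-1, after the Caenorhabditis elegans member of the ubiquitin-like family that coats autophagosomes, lay at 0.92, 1.92, 1.75 and 1.58 in C0 and at 2.43, 3.24, 3.1, 1.94 and 3.79 in F0. It was at -0.65, -0.76, -0.42, -0.38 and -0.22 in RF4, at -2.32, -0.70, -1.68, -0.42 and -0.69 in RF11 and at 0.25, 0.26, 0.19 and 0.42 in RF36. The RF36 fish formed a tight group between the early refed fish and the controls without touching either. RF36 was above RF11 by 1.44 ± 0.35 (adjusted p = 0.0159) and below C0 by 1.26 ± 0.37 (adjusted p = 0.0276), the second call being lost on scaling to the array median or with the authors' values (adjusted p = 0.114 for both), without C0-2 (adjusted p = 0.0803), RF36-1 (adjusted p = 0.0545), RF36-2 (adjusted p = 0.0635) or RF36-3 (adjusted p = 0.0645), and with no filter on dim probes (adjusted p = 0.0599). Another lgg-1 probe, CUST_13665, did not follow, with means of 1.68 in C0, 3.99 in F0, 2.90 in RF4, 1.82 in RF11 and 1.00 in RF36, so the drop below control early in refeeding was a property of 1 of the 2 probes.

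ZFYVE1 marks the membrane sites where autophagosomes form in mammalian cells. Its member probe lay at 0.01, 0.35, 0.65 and 0.76 in C0, at -2.41, -2.31, -1.62, -1.96 and -1.73 in RF4 and at -1.79, -0.86, -1.49, -1.02 and -0.93 in RF11. In RF36 it was at 0.09, -0.31, 0.31 and 0.20, above every early refed fish, and rose by 1.29 ± 0.28 from RF11 (adjusted p = 0.00758). A second ZFYVE1 probe, CUST_2376, had a mean of -1.80 in RF36 and of -1.08 in C0 and thus did not share this profile. CALCOCO1, known as a transcriptional coactivator and an autophagy receptor, had means of 2.28 in C0, 3.37 in F0, 0.23 in RF4, 0.48 in RF11 and 1.65 in RF36. A probe named for a larval muscle actin of a sea squirt followed it at a correlation of 0.998 over the 23 arrays, never more than 0.22 apart, and whether both read 1 transcript was not determined. Both were above RF11 in RF36 (CALCOCO1 by 1.17 ± 0.27, adjusted p = 0.0114). Neither was called below C0 over all arrays with the main scaling. Both were called without C0-1, in which they were lowest (CALCOCO1 -0.89, adjusted p = 0.045, and actin -0.97, adjusted p = 0.0289). Both were also called over all arrays with quantile normalization (CALCOCO1 -0.87, adjusted p = 0.0239, and actin -0.96, adjusted p = 0.0136).

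TRAFD1, which dampens innate immune signalling, was a dim member. It lay at -0.65, 0.37, 0.82 and 0.78 in C0 and at -3.33, -4.91, -3.23, -3.72 and -3.69 in RF4, where it was not well above background in any fish, a drop of at least 8.22-fold. In RF11 it lay at -2.73, -0.65, -2.72, -1.88 and -1.68 and in RF36 at -1.32, -1.84, -1.43 and -1.28. It was at least 1.71-fold higher in RF11, where 3 of 5 fish were well above background, than in RF4 (adjusted p = 0.0157), and RF36 was still 1.80 ± 0.43 below C0 (adjusted p = 0.00877).

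Genes of transcription and nuclear or ribosomal function gave 4 names. The probe named eng2b, an engrailed homeobox gene that in zebrafish embryos marks a subset of muscle cells, lay at 1.77, 3.11, 1.72 and 2.52 in C0 and at 2.82, 3.42, 2.86, 2.55 and 2.93 in F0. It was at 0.18, -0.07, -0.65, -0.50 and -0.88 in RF4, at -0.39, -0.99, -1.34, -1.39 and -1.03 in RF11 and at 2.11, 2.17, 1.47 and 2.51 in RF36. The early refed fish were far below all others, and the RF36 fish overlapped the controls. The rise from RF11 to RF36 was 3.09 ± 0.29 (adjusted p = 1.36e-05), the highest among the members, and the RF36 mean differed from C0 by -0.21 ± 0.31 (adjusted p = 0.703). GTPBP2, a GTPase that helps rescue stalled ribosomes in mouse, had means of 1.33 in C0, -1.24 in RF4, -0.24 in RF11 and 0.72 in RF36, and was above RF4 in RF36 by 1.96 ± 0.35 (adjusted p = 0.000592).

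POLR3GL, a subunit of RNA polymerase III, and NUP98, a nuclear pore protein, were both below C0 at RF36. The POLR3GL means were -0.03 in C0, -2.27 in RF4, -1.63 in RF11 and -1.22 in RF36, with RF36 below C0 by 1.19 ± 0.22 (adjusted p = 0.00123) and above RF4 by 1.05 ± 0.20 (adjusted p = 0.00117). NUP98 had means of -1.20 in C0, -2.70 in RF4 and -3.63 in RF11, with 2 of 5 RF4 fish and 1 of 5 RF11 fish well above background. It was not well above background in any RF36 fish, and was at least 2.08-fold lower there than in C0 (adjusted p = 0.000485).

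Muscle structure and matrix gave 3 names. MYOZ1, a calcineurin-binding protein of the Z-disc of fast fibres, lay at 0.13, 0.74, -0.21 and 1.67 in C0 and at 1.37, 1.51, 0.36, 0.73 and -0.02 in F0. It was at -2.03, -0.91, -1.61, -1.19 and -1.80 in RF4, at -1.53, -1.12, -0.50, -0.83 and -0.95 in RF11 and at 0.01, 0.55, 1.16 and 0.97 in RF36. The RF36 fish lay inside the ranges of the fasted and the control fish, and their mean was 1.66 ± 0.36 above RF11 (adjusted p = 0.0076). C6orf142, a human gene for a muscle protein that binds lamin A, had a mean of 1.30 in C0, -0.30 in RF4, -0.29 in RF11 and 0.12 in RF36. Its RF36 mean was 1.18 ± 0.31 below C0 (adjusted p = 0.016), a call lost without C0-1 (-0.88, adjusted p = 0.0728), on scaling to the array median (adjusted p = 0.0593) and with only the 2 groups in the model (adjusted p = 0.118). A further C6orf142 probe, TC127706, had a mean of 1.98 in C0, 0.57 in RF4, 0.93 in RF11 and 0.11 in RF36. SVEP1, a large extracellular matrix protein, had means of 0.94 in C0, -1.06 in RF4, -0.75 in RF11 and -0.39 in RF36, and RF36 was 1.33 ± 0.28 below C0 (adjusted p = 0.00401, and 0.0521 with only the 2 groups in the model).

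KIAA1370, an uncharacterised protein in these annotations, was read by 3 member probes that correlated at 0.92 to 0.97, and a further probe of it, CUST_8749, missed the rule by little (smallest difference 1.44). The probe TC120842 lay at 1.49, 1.72, 2.67 and 2.39 in C0, at 0.20, 0.47, -0.36, -0.17 and 0.45 in RF4, at 0.13, 0.81, -0.03, 0.62 and 0.31 in RF11 and at 1.03, 1.03, 0.06 and 0.62 in RF36. All 3 were lower in RF36 than in C0, by 1.60 ± 0.38, 1.38 ± 0.31 and 1.23 ± 0.24 (adjusted p = 0.008, 0.00568 and 0.00222), and no RF36 fish reached a C0 fish. The TC120842 call was lost with only the 2 groups in the model (adjusted p = 0.0619). The ReO_6-like probe, of unknown function, had means of -0.07 in C0, -2.15 in RF4, -1.90 in RF11 and -0.44 in RF36, and rose by 1.46 ± 0.27 from RF11 to RF36 (adjusted p = 0.00244).

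Of the 15 unnamed members, the 4 with the greatest smallest difference are described singly. TC126233 had means of 0.76 in C0 and -0.36 in F0, was not well above background in any RF4 fish and was at least 11.1-fold lower there than in C0. Its RF36 levels were uneven, at -2.42, -0.42, -3.57 and -1.95, and their mean was 2.85 ± 0.58 below C0 (adjusted p = 0.00298), a call lost with only the 2 groups in the model (adjusted p = 0.05). It was well above background in 2 of the 4 RF36 fish. TC112861 had means of -0.03 in C0, 1.03 in F0, -2.83 in RF4, -3.12 in RF11 and -1.66 in RF36, with only 1 of 5 RF11 fish well above background. The RF36 minus C0 difference of -1.62 ± 0.62 was not called (adjusted p = 0.087), although it was with normexp (adjusted p = 0.0443) and without RF4-7 (adjusted p = 0.0461).

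TC126095 had the widest range of the 4. It lay at 0.08, 0.64, 3.59 and 2.32 in C0, at 4.06, 7.35, 5.90, 5.09 and 7.30 in F0 and at 0.06, -1.68, -0.94, -1.73 and -0.98 in RF4. It was at -2.93, -1.52, -1.45, -1.72 and -2.45 in RF11 and at -2.23, -3.18, -1.94 and -2.01 in RF36, where 1 of 4 fish was well above background, so that the RF36 differences of this probe rest mostly on dim signal. RF36 was 4.0 ± 0.69 below C0 (adjusted p = 0.000827) and 8.28 ± 0.65 below F0 (adjusted p = 8.22e-09). TC101627 had the same mean in C0 (-0.01) and F0 (-0.04) to within their spread, and stayed at -3.17 in RF4, -2.69 in RF11 and -2.91 in RF36, 2.89 ± 0.41 below C0 (adjusted p = 0.000147). It was well above background in 1 of 5 RF4, 3 of 5 RF11 and 1 of 4 RF36 fish. The other 11 unnamed probes had smallest differences of 1.55 to 2.37 and C0 means of -1.45 to 4.08. At RF36, 2 of them were below C0 and not called above RF4 or RF11, 3 were below C0 but above RF4 or RF11, 2 were above RF4 or RF11 only and 4 were called in neither way, with RF36 minus C0 differences of -2.76 to -0.46.

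Fasted and control-fed trout were also compared directly. The rule did not set them against each other, but it asked both to lie at least 1.5 above the refed means. Probes with a fasted level far below control, or the reverse, were thus less likely to be members. The counts, the 0 lower among them, are shaped by this and only describe the members. Here 7 members were higher in F0 than in C0 (11.4% of all tested probes) and 0 lower (8.92%), with 11 (16.9%) and 0 (14.7%) at an unadjusted p under 0.05. The 7 were TC126095 (by 4.28 ± 0.65, adjusted p = 6.53e-05), lgg-1 (1.36 ± 0.35, adjusted p = 0.0077), TC120551, the actin and CALCOCO1 probes, CYP46A1 TC131019 and the ReO_6-like probe. Without C0-1, 6 were higher (9.23% of all tested probes), and CYP46A1 TC131019 (adjusted p = 0.0788) and the ReO_6-like probe (adjusted p = 0.0852) were no longer called while C6orf142 was (0.99, adjusted p = 0.0187). For the other named members the fasted level was not shown to differ from the control level. GTPBP2 and TRIM21, for instance, had F0 minus C0 differences of 0.00 ± 0.35 and -0.23 ± 0.34.

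Both early times were also compared. The RF4 mean was the lower one for 31 members and the RF11 mean for 10. Between RF4 and RF11, 3 members rose (1.19% of all tested probes) and 0 fell (0.746%), with 12 (7%) and 3 (6.87%) at an unadjusted p under 0.05. The 3 were TRAFD1, acy3.2 and the unnamed TC128162, which went from 0.08 to 1.70 (adjusted p = 0.00956). Without C0-1, which changes only the pooled spread in this comparison, 5 rose (1.73% of all tested probes).

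Other genes of the routes above were counted from lists drawn up for this tissue, as far as a probe carried the name. All but a few of these names come from the part of the study's heat map read here, which the study chose on these samples, so the counts are not independent evidence of direction. The lists also hold the genes left out by name. Among 12 probes of FOXO targets and growth suppressors, none a member, 9 were lower and 1 higher in RF4 than in C0 (9.92% and 15.5% of all tested probes), with a median of -1.32 against -0.09 over all tested probes. In RF11, 7 of the 12 were lower (6.71% of all tested probes) and 0 higher (14%), and at RF36 6 were lower (3.22%) and 1 higher (9.24%). The 9 lower in RF4 included CCNG2, a cyclin that slows the cell cycle, and HBP1, a growth-suppressing transcription factor. CCNG2 had means of 1.15 in C0, 0.02 in F0, -1.60 in RF4 and 0.20 in RF36. The 1 higher in RF4 was TXNIP (0.94, adjusted p = 0.0338), and the 1 higher at RF36 was DDIT4L TC96967 (1.71, adjusted p = 0.0434). In F0, 5 of the 12 were higher than in C0 (11.4% of all tested probes) and 1, CCNG2, was lower (8.92%). Neither HBP1 probe was called in F0. Of 20 autophagy and lysosome probes outside the set, 7 were lower (9.92% of all tested probes) and 1 higher (15.5%) in RF4 than in C0, and 11 were higher (11.4%) and 1 lower (8.92%) in F0 than in C0. The 7 included both probes of SQSTM1 and both of TP53INP2, a gene left out by name. The 1 higher in RF4 was MAP1LC3A (0.91, adjusted p = 0.00452). In RF11, 9 of the 20 were lower (6.71%) and 0 higher (14%), and at RF36 1 was lower (3.22%) and 0 higher (9.24%). SQSTM1, an autophagy cargo receptor, had means of 5.97 in C0, 6.88 in F0 and 5.20 in RF4 (probe CUST_5507). Of 8 probes of fat oxidation and fuel switching outside the set, 3 were lower and 0 higher in RF4 than in C0, and the 3 were PDK1 and both CPT1A probes, which met the rule and were left out by name. The 3 probes of ACADM, an enzyme of fatty acid oxidation, were not called in RF4 against C0 (differences of 0.32, 0.29 and 0.04), nor were PPARA and PPARD, transcription factors of fat use. At RF36, 4 of the 8 were lower than in C0 (3.22% of all tested probes) and 0 higher (9.24%). Among the 4 were ACADM CUST_8590 (-0.98, adjusted p = 0.0224) and TC99307 (-1.26, adjusted p = 0.00267), while ACADM CUST_7851 was not called (-0.88, adjusted p = 0.0538). The 3 probes of amino acid and polyamine catabolism, of which TAT met the rule and the other 2 read SMOX, and the 1 circadian probe, NFIL3, were lower in RF4 than in C0 (9.92% of all tested probes). In RF11 the 3 were again lower (6.71%), and NFIL3 was not called (-0.48, adjusted p = 0.162). At RF36 TAT was lower than in C0 (3.22%), and neither SMOX nor NFIL3 was called. In F0 both SMOX probes were lower than in C0 (adjusted p = 0.0246 and 0.0127), and TAT was higher (adjusted p = 0.0189). TAT was also the only probe of the glucocorticoid list.

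Markers of fibre types and of other cells were measured beside the members. Of the 21 probes of 5 collagen and other fibroblast genes, 21 were lower in F0 than in C0 (8.92% of all tested probes), by a median of 2.42. The members cannot be set against them here, since the rule asked for a fasted mean above both early refed means. Most of the 21 read COL1A1 or COL1A2, so they are not separate markers. In RF4 12 of the 21 were lower than in C0 (9.92%) and in RF11 5 were (6.71%), with 0 higher at either time, and at RF36 none was called against C0. Averaged over the list, the fibroblast level ranged over the fish from 4.41 to 5.07 in C0, from 1.74 to 3.06 in F0, from 3.12 to 4.30 in RF4, from 3.52 to 4.49 in RF11 and from 4.68 to 5.07 in RF36. The 1 leucocyte marker with a probe, LCP1, had means of 2.54 in C0, 3.45 in F0, 2.06 in RF4, 1.21 in RF11 and 2.90 in RF36. Like the members, it was lower at both early refed times than in C0 and F0 by its means, and it was called below C0 in RF11 (-1.33, adjusted p = 0.000336) but not in RF4 (-0.49, adjusted p = 0.141). Of 4 fast fibre marker probes, 3 were lower in RF4 than in C0 (9.92%) and 1, CKM, was higher (15.5%). In F0 the same 3 were lower (8.92%) and CKM was higher (11.4%). In RF11 only CKM was called, as higher (14%), and at RF36 none was. The 1 slow fibre marker with a probe, MYOZ2, was lower than in C0 in RF4 (-1.45, adjusted p = 0.000258) and in F0 (-1.69, adjusted p = 6.42e-05). It was not called in RF11 or at RF36. The part of fibre types, leucocytes and fibroblasts in the members' differences was not tested. No probe could be named for erythrocytes or adipocytes, so their part was not tested.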

How the data were processed

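Cy3-labelled muscle RNA of 23 trout, 1 fish an array, was measured on 3 slides. The deposited intensity of a spot is the processed signal of Agilent Feature Extraction 10.7.3.1, background-subtracted by the software and not scaled between arrays, and the authors' median spot and background intensity served only the normexp alternative (offset 50). The authors' deposited table of log2 values, scaled by 1 factor per array in GeneSpring, was used as an alternative; its centring follows the array median. Control spots and 145 outlier spots were left out (0 spots were saturated), spots of a probe were averaged as log2, and the 75th percentile of each array was subtracted. The 137 probes with a missing value were dropped. The test covered the 34200 probes that at least 4 arrays of any 1 group showed well above background, and used limma 3.58.1 in R 4.3.3 (lmFit, eBayes, 1 mean per group, all 5 groups), two-sided, with Benjamini-Hochberg adjustment over all of them and a threshold of 0.05. All members are among the tested probes. Tables used Python 3.11.15, numpy 2.4.6 and pandas 2.3.3. The model was tested on simulated data.

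The members, the named-gene rule and the lists were chosen with earlier results of these data known. Named were all members with a name (1 probe per gene, that with the greatest smallest difference, and others of the same gene beside it) and the 4 unnamed ones ranked highest. Names came from the scanner files and from the part of the study's heat map file read here. The number of arrays limits the precision. Fish of 1 number in different groups are different fish, so no pairing was used.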

Additional observations from a re-analysis of the deposited data

Results flagged for a closer look

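Over the 26 probes named by rule, 130 groups of 4 or 5 fish were screened for a fish set apart from the rest of its group, and 8 were found; chance flags about 1 in 20 groups. Among the controls, C0-1 stood low for 3 probes, at 1.46 for CALCOCO1 (others 2.52 to 2.58), 1.52 for the larval muscle actin probe (others 2.49 to 2.65) and -0.42 for POLR3GL (others 0.07 to 0.14). The first 2 probes follow each other and are not independent. RF4-3, which also had a high Slow probe (7.30), stood high at -0.12 for acy3.2 (others -1.28 to -1.14) and at -1.07 for SLC38A9 (others -1.82 to -1.64). RF4-2 stood low at -4.77 for CYP46A1 (CUST_20026; others -3.05 to -2.49). RF11-4 stood low at -1.29 for SVEP1 (others -0.73 to -0.56), and RF36-1 at -2.29 for TC112861 (others -1.48 to -1.41). The sources of these differences were not tested.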

How the results depend on the processing

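The number of members depended on scale and threshold. Scaling to the array median and the authors' values each left 21 of the 41, normexp, whose offset compresses low signals, 9, a requirement of signal well above background on all 23 arrays 19, a threshold of 2 log2 units 12 and a threshold of 1 gave 148; leaving out single arrays gave 34 to 60. Median scaling moved the median RF36 minus C0 difference of all tested probes from 0.03 to 0.27. RF36 against C0 called 10 members (of 19 tested) with the filter set to signal well above background on every array. It called 15, all lower, with only the 2 groups compared in the model (0.547% of all tested probes), and 21 to 27 on leaving out single arrays. RF36 against F0 called 14 of 19 with only probes above background on all arrays (32 to 36 without single arrays). RF36 against RF11 called 6, all higher, with median scaling and with the authors' values (0.713% of all tested probes in each) and 5 at an adjusted p under 0.01 (9 to 12 without single arrays). F0 against C0 called 13 with normexp (12 higher and 1 lower, against 13.3% and 14.9% of all tested probes). It called 4, all higher, with only the 2 groups (5.53% of all tested probes) and 6 to 10 without single arrays. RF11 against RF4 called 1 at an adjusted p under 0.01 and 2 to 5 without single arrays. With the replicate number as a block, F0 against C0 called 4 members, all higher (8.44% of all tested probes). RF11 against RF4 then called 0 with limma (at an unadjusted p under 0.05, 11 higher and 2 lower), where 0.444% of all tested probes were higher and 0.132% lower. Same-numbered fish of different groups correlated at a median of 0.11 (lowest -0.32), and differently numbered ones at -0.01. Of the 23 arrays, 7 correlated best with their own number. What same-numbered samples may share was not tested. The remaining counts stayed within 1.5 times. Where no share of all tested probes is given, a count describes the members only.

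For the named probes in RF36 against C0, 786 of the alternative values kept their side of the threshold, 18 lost the call, 6 gained it and 7 changed sign. The changes of sign were for differences near 0: eng2b was 0.0299 with median scaling, 0.0297 with the authors' values and -0.40 to 0.0647 without single arrays, the highest without C0-2, and MYOZ1 ranged from -0.17 to 0.46 without single arrays. The cause was not tested. Dim probes, such as PDK2 and NUP98 in RF36, have bounds only.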
